A study of Mus musculus with 4 samples.

Results

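A set of 7 genes best known from the nervous system, Nes, Map2, Tubb3, Olfm1, Ncam1, Gap43 and Ckb, were followed in RNA sequencing of mouse embryonic fibroblasts (MEFs). They are 7 of 23005 named genes and unnamed transcripts in the deposited table. The list was chosen from general knowledge of neural genes together with the RPKM of these same libraries in the genotype comparison, so the genotype values below are a description and carry no test. Each gene is represented by its transcript entry with the highest mean RPKM (reads per kilobase of transcript, scaled to the library's total reads).

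The 4 libraries were cells labelled Mll1-/- with tumour necrosis factor alpha (TNF), cells labelled Mll1-/- without it, wild-type (Mll1+/+) cells with TNF, and wild-type cells without it. TNF was given at 10 ng/ml for 4 hr, a dose that the sample characteristics and the design text state, while the treatment text writes another unit. All cells were MEFs grown in DMEM with serum. Each library pooled the harvests of 3 treatments, so each group is 1 library, no spread between replicates exists, and every comparison describes these 4 libraries. The product of Mll1, whose current symbol is Kmt2a, methylates lysine 4 of histone H3 and binds unmethylated CpG dinucleotides through its CXXC domain. The labels do not give the deleted part of the gene, or whether either cell line is 1 clone.

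Neural stem cells, neurones and glia are told apart by structural proteins: nestin in the intermediate filaments of progenitors, MAP2 and class III beta-tubulin in the microtubules of neurones, GAP-43 in growing axon tips and NCAM on the cell surface. None of these is wholly restricted to the nervous system, and nestin, class III beta-tubulin and NCAM are also known from muscle, mesenchymal and cultured cells. Brain creatine kinase is the cytosolic creatine kinase of brain and many other tissues, and olfactomedin 1 is a secreted glycoprotein of the developing and adult nervous system.

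Of the 7 genes, 5 (Nes, Map2, Tubb3, Olfm1 and Ckb) were higher in the libraries labelled Mll1-/-, without TNF by 3.71-fold for Tubb3, 11.8-fold for Nes, 146-fold for Ckb and 453-fold for Olfm1. Map2 had 903 reads against 1 read in wild type, a ratio whose counting interval ran from 223 to 49302. Ncam1 differed by 1.68-fold, and Gap43 had no read in either library labelled Mll1-/-. No TNF ratio of the genes reached the 2-fold rule used here, which 0.848% of all genes reached in the cells labelled Mll1-/- and 0.577% in wild type. In wild type, Map2, Olfm1, Ckb and Gap43 had too few reads for a close ratio. Of 11 measured genes that define neurones, 2 (Syn1 and Slc17a6) reached 1 RPKM, both only in libraries labelled Mll1-/-, so they had to differ. None of the 5 measured neural progenitor genes reached it in any library.

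The promoters of the 5 genes that were higher are shown because Mll1 binds unmethylated CpG, and the reader can see how many CpG each holds. They are RefSeq sequences on GRCm38.p6, each from 250 bases before the transcription start to 50 bases after it, read 5′ to 3′ on the gene's own strand, in lower case with each CpG in capitals. They lie at chr3:87970843-87971142 (plus strand) for Nes, chr1:66175079-66175378 (plus) for Map2, chr8:123411303-123411602 (plus) for Tubb3, chr2:28192843-28193142 (plus) for the first promoter of Olfm1 and chr12:111672289-111672588 (minus) for Ckb.
Nes: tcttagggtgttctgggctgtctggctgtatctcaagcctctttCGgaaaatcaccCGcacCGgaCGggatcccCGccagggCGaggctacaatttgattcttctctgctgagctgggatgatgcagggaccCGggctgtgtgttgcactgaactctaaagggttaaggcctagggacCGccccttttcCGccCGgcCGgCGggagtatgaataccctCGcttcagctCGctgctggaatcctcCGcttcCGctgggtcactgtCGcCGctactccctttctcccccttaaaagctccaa
Map2: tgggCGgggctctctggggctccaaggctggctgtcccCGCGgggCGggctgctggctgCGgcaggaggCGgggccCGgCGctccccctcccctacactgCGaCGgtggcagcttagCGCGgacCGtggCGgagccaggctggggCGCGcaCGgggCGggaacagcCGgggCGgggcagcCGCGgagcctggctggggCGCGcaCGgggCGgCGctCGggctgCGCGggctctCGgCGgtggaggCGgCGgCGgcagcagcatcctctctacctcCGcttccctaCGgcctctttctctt
Tubb3: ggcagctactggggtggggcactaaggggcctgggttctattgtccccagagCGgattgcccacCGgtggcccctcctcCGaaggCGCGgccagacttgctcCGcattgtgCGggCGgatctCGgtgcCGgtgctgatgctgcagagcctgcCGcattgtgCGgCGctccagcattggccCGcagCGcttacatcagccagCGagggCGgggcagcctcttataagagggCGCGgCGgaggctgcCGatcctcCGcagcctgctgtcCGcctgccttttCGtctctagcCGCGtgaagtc
Olfm1: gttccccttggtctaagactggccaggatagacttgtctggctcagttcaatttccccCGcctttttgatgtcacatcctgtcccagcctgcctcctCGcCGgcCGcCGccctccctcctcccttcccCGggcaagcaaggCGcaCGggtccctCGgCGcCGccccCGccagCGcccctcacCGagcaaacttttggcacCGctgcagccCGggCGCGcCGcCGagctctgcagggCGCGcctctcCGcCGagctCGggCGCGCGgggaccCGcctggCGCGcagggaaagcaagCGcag
Ckb: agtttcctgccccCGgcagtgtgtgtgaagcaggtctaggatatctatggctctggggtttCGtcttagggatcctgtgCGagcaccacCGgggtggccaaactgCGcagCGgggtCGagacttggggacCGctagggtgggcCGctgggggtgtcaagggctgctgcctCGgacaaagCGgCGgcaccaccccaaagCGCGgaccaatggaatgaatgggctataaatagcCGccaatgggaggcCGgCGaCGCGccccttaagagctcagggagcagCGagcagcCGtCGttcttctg

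All of them were richer in CpG than the middle promoter of the table. Nes held 18 CpG in its 300 bases, Ckb 22, Tubb3 26, the first promoter of Olfm1 32 and Map2 37, and the second promoter of Olfm1 held 43. The median of all 32851 promoters was 7 CpG, with quartiles of 3 and 20. Promoters of expressed genes are richer than that, counting only genes with a promoter here and taking the CpG-richest promoter of each. Among these, the median was 19 for the 622 genes higher in the control library labelled Mll1-/- by the 2-fold rule. It was 19 for the 602 genes lower and 23 for the 7635 genes within it. With genes lacking a promoter here included, 1023 were higher and 1150 lower. Beside that last median, Nes and Ckb lay lower and Tubb3, Olfm1 and Map2 higher. The Tubb3 entry starts 129 bases from the start site of its window and the Map2 entry 16 bases, while those of Nes and Ckb start at it.

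The same windows were searched on both strands for common promoter motifs. A GC box (GGGCGG) was found in the promoters of Nes, Map2, Tubb3 and Olfm1, with 5 matches in Map2, and in 35.7% of all promoters. Ckb had no GC box and held the only TATA box (TATAAA) among them, 28 bases before its start, against 13.6% of all promoters with a match. It also held 2 CCAAT boxes, Tubb3 held 1, and 37.4% of all promoters held at least 1. An E-box (CANNTG) was found in none of the windows of the 5 genes and in 72.3% of all promoters. These are matches of letters in these windows only.

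**Figure D1:**
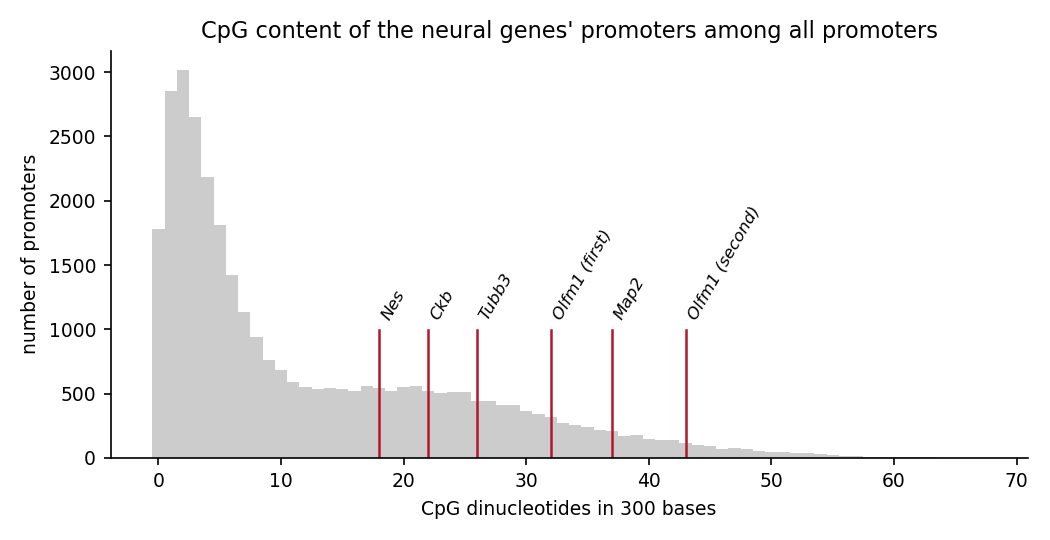
Number of CpG dinucleotides in 300 bases (horizontal axis) for all 32851 RefSeq promoters (grey bars, number of promoters) and for the 6 promoters of the 5 genes that were higher (red lines). The red lines run between 18 CpG for Nes and 43 for the second promoter of Olfm1, above the median of 7.

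The libraries held 19306506 reads (labelled Mll1-/-, TNF), 20081869 (labelled Mll1-/-, control), 27977248 (wild type, TNF) and 27728647 (wild type, control), as recovered from the RPKM values. Kmt2a, the gene named in the genotype, had 1.66 and 2.02 RPKM in the libraries labelled Mll1-/- with and without TNF, against 2.11 and 1.85 RPKM in the wild-type libraries. Its transcript was thus present in all 4, and since its entry covers the whole transcript while the deleted part is not given, this value does not check the genotype label. The 11 measured fibroblast genes summed to between 4285 and 5568 RPKM in each library, led by Vim and S100a4. Those 2 genes made up most of each sum, and 2 others of the 11 did not reach 1 RPKM in any library. Col1a1 was at 295 and 337 RPKM in the libraries labelled Mll1-/- with and without TNF, against 92.5 and 105 RPKM in wild type, while Dcn, the decorin gene, was at 15.2 and 9.16 RPKM against 0 in both wild-type libraries. In bulk RNA, more cells of a type and more RNA per cell cannot be told apart.

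Only genes reaching 1 RPKM in some library were compared, which kept 14386 genes and unnamed transcripts and 6 of the 7 neural genes. Gap43 was under that level. Map2, Olfm1 and Ckb passed only through the libraries labelled Mll1-/-, so they had to differ. Log2 ratios were taken of RPKM + 0.5, which understates differences of low genes, and a ratio of 1 or more in size (2-fold) is called the size rule. Folds were taken from recovered reads, with 95% Clopper-Pearson intervals that cover counting error only. Without TNF, 5 of the 6 genes were higher in the library labelled Mll1-/- by the size rule and 0 were lower, where 7.11% of all genes compared were higher and 7.99% lower. With TNF the same count was 5 and 0, against 6.71% and 4.5% of all genes. The genotype contrast was used in choosing the genes, so nothing is read from these shares.

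Nes encodes nestin, the intermediate filament protein of neural progenitors, also made in muscle and vascular precursors. It was at 47.96 and 61.4 RPKM in the libraries labelled Mll1-/- with and without TNF, against 5.38 and 5.18 RPKM in the wild-type libraries. Both libraries labelled Mll1-/- were thus above both wild-type ones, and it was the highest of the 7 genes there. On 7569 against 883 reads without TNF it was 11.8-fold higher (counting interval 11.0 to 12.7, log2 3.44). On 5688 against 925 reads with TNF it was 8.91-fold higher (8.31 to 9.56, log2 3.04). It ranked 65 from the top of 14386 without TNF and 97 with TNF.

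The other intermediate filament genes had smaller ratios or were near 0. Vim, whose product is the main filament of mesenchymal cells, was at 2097 and 2177 RPKM with and without TNF in the libraries labelled Mll1-/-, against 2224 and 2418 RPKM in wild type. Des, the desmin gene of muscle, was at 2.995 and 3.78 RPKM against 0.975 and 1.28 RPKM (log2 1.24 with TNF and 1.26 without). Of 6 measured filament genes, 2 reached 1 RPKM and 1 of these, Des, was higher by the size rule in both genotype comparisons. The share over all genes was 6.71% with TNF and 7.11% without, and a count of 2 genes is too small to set beside it. The glial filament gene Gfap and the neurofilament gene Nefm stood at no more than 0.0729 RPKM in any library.

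Map2 encodes the microtubule-associated protein of dendrites. It was at 6.39 and 8.12 RPKM in the libraries labelled Mll1-/- with and without TNF, against 0 and 0.00652 RPKM in wild type. The wild-type values rest on 0 reads with TNF and 1 read without, so both are under the floor of 3 reads. With TNF, 683 reads against 0 made it at least 329.9-fold higher, taking 0 as up to 3 reads per library. Without TNF, 903 reads against 1 gave a ratio of 1247 (counting interval 223 to 49302). Its log2 ratios of RPKM + 0.5 were 3.78 with TNF and 4.09 without. A second entry, 5445 bases long against 5535 for the first, had 6.33 and 8.03 RPKM against 0 and 0.00662 RPKM, and reads counted for both entries cannot be separated.

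The other microtubule-associated genes of neurones mostly stood at similar levels in both genotypes. Of 17 measured neuronal cytoskeleton genes, 7 reached 1 RPKM, and 1 of these was higher and 0 lower by the size rule in both genotype comparisons. Among all genes compared, 6.71% were higher with TNF and 7.11% without. The median log2 ratio of the 7 was 0.04 with TNF and 0.24 without, against -0.05 and -0.07 for all genes. The 1 higher was Map1a, a microtubule-associated protein gene of mature neurones, at 9.41 and 13.3 RPKM in the libraries labelled Mll1-/- with and without TNF and 4.25 and 4.44 RPKM in wild type. Dpysl2, a regulator of axon growth, had log2 ratios of 0.14 with TNF and 0.32 without, and its relative Dpysl3 had -0.42 and -0.12. The microtubule-destabilising gene Stmn1 was at 91.0 and 73.9 RPKM against 77.6 and 79.5 RPKM. The axonal tau gene Mapt and the doublecortin gene Dcx of young neurones were at no more than 0.0764 RPKM in any library. Crmp1, also under 1 RPKM, was at 0.672 and 0.493 RPKM (38 and 29 reads) in the libraries labelled Mll1-/- with and without TNF, against 0 in wild type.

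Tubb3 encodes class III beta-tubulin, used as a marker of neurones. It was at 37.4 and 34.2 RPKM in the libraries labelled Mll1-/- with and without TNF, against 8.64 and 9.23 RPKM in wild type. The groups were apart, yet the gene was expressed in all 4 libraries, and in wild type it was the highest of the 7. It was 4.33-fold higher with TNF (counting interval 3.88 to 4.84, log2 2.05) and 3.71-fold higher without (3.32 to 4.14, log2 1.83). Of its 36-base words, 1.80% occur in other GENCODE genes, mainly Tubb6, Tubb2a and Tubb2b, so few reads can be confused at that length. The read length is not given in the sources used here.

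None of the other beta-tubulin genes passed the size rule between the genotypes, with 0 of 6 higher and 0 lower in both comparisons. Among all genes compared, 6.71% were higher and 4.5% lower with TNF, and 7.11% and 7.99% without. The most abundant was Tubb5, at 601 and 580 RPKM in the libraries labelled Mll1-/- with and without TNF, against 660 and 686 RPKM in wild type. Tubb2a, a beta-tubulin gene of neurones and other cells, was at 126 and 87.0 RPKM against 68.1 and 70.9 RPKM (log2 0.89 with TNF and 0.29 without). Tubb4b had -0.21 and -0.59, and Tubb6 had -0.01 and -0.40. Tubb3 made up a small part of the beta-tubulin RNA in every library, since the other 7 genes summed to 1549 and 1332 RPKM against 1600 and 1692 RPKM.

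Olfm1 encodes olfactomedin 1, also called noelin or pancortin, a secreted glycoprotein with alternative first exons and alternative ends. It was at 27.3 and 30.4 RPKM in the libraries labelled Mll1-/- with and without TNF, against 0.0532 and 0.0671 RPKM in wild type. In wild type these were 4 and 5 reads. The ratio was 513-fold with TNF (counting interval 200.1 to 1887, log2 5.65) and 453-fold without (194 to 1398, log2 5.77). The gene ranked 5 from the top of 14386 without TNF and 10 with TNF.

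The table holds 4 entries of Olfm1. The 2 long ones, 2686 and 2727 bases, had 30.4 and 30.3 RPKM in the control library labelled Mll1-/-, and the 2 short ones, 1048 and 1007 bases, had 11.3 and 10.7 RPKM. In wild type the short entries had 1 read each without TNF and 0 with TNF. By GENCODE, the leading entry starts at the first promoter, printed above, and the other long entry 30 bases from the start site of the second. Those long entries had 1642 and 1662 reads in the control library labelled Mll1-/-, and since reads counted for both cannot be separated, the use of the 2 promoters cannot be told apart here.

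Of 4 measured olfactomedin family genes, 2 reached 1 RPKM, and 1 of these was higher by the size rule in both comparisons. The share over all genes was 6.71% with TNF and 7.11% without, and a count of 2 genes is too small to set beside it. The 1 higher was Olfml3, whose product is a secreted matrix scaffold, at 16.8 and 16.4 RPKM in the libraries labelled Mll1-/- with and without TNF and 3.50 and 3.70 RPKM in wild type. Olfml2b was at 13.7 and 14.2 RPKM against 7.10 and 8.69 RPKM (log2 0.91 with TNF and 0.67 without).

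Ncam1 encodes the neural cell adhesion molecule, which binds itself and other ligands on neighbouring cells. It was at 5.54 and 7.96 RPKM in the libraries labelled Mll1-/- with and without TNF, against 4.46 and 4.74 RPKM in wild type. The groups did not overlap, but the library labelled Mll1-/- with TNF lay nearer to the wild-type ones than to its own control. The ratio was 1.24-fold with TNF (counting interval 1.12 to 1.38, log2 0.28) and 1.68-fold without (1.53 to 1.84, log2 0.69), both within the size rule. When scaling ignored the 20 most abundant genes its log2 ratio without TNF was 0.97, and with the trend along transcript length removed it was 0.48. Its other 2 entries had log2 ratios of 0.67 and 0.69 without TNF. An antisense gene, Gm11149, shares 414 exon bases with it, and the labels do not say that strand was kept.

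Of 10 measured genes for other adhesion molecules of the immunoglobulin family, 4 reached 1 RPKM. Of these, 3 did so only in the libraries labelled Mll1-/- and 1 only in wild type, so all 4 had to differ and their number is no result. Cadm1, a synaptic and epithelial adhesion molecule gene, was at 40.01 and 48.9 RPKM in the libraries labelled Mll1-/- with and without TNF, against 0.0493 and 0.0414 RPKM in wild type. Alcam was at 15.9 and 15.6 RPKM against 0.165 and 0.159 RPKM, and Nrcam, an axonal adhesion molecule gene, at 2.17 and 3.05 RPKM against 0.0631 and 0.0980 RPKM. L1cam, which guides growing axons, went the other way, at 0.00980 and 0.0283 RPKM against 4.89 and 4.83 RPKM (log2 -3.40 with TNF and -3.33 without). St8sia4, which adds polysialic acid to NCAM, had at most 0.0372 RPKM.

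Gap43 encodes the growth-associated protein of growth cones. It had 0 reads in both libraries labelled Mll1-/-, against 2 reads with TNF and 1 read without in wild type (0.0543 and 0.0274 RPKM). All 4 values are at or under the floor of 3 reads, so no fold is given and no difference was detectable at this depth. Of 8 growth cone and axon outgrowth genes that reached 1 RPKM in both genotypes, 1 was higher and 0 lower by the size rule in both comparisons. That is near the share over all genes, where 6.71% were higher with TNF and 7.11% without. The semaphorin receptor gene Nrp2 was at 31.3 and 32.8 RPKM against 15.1 and 11.9 RPKM, and the Nogo receptor gene Rtn4r, which reached 1 RPKM only in wild type, at 0.0274 and 0.105 RPKM against 1.19 and 1.60 RPKM. Basp1, a growth cone protein gene related to Gap43 in role, was at 68.5 and 62.95 RPKM against 63.3 and 59.9 RPKM.

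Ckb encodes brain creatine kinase, which regenerates ATP from phosphocreatine. It was at 41.3 and 39.2 RPKM in the libraries labelled Mll1-/- with and without TNF, against 0.169 and 0.268 RPKM in wild type, where it had 7 and 11 reads. It was 244-fold higher with TNF (counting interval 118 to 608, log2 5.96) and 146-fold higher without (81.3 to 293, log2 5.69). Its rank was 6 from the top with TNF and 7 without. Of its 36-base words, 32.5% occur in annotated copies (Gm12892, Ckb-ps1 and Ckb-ps2), so part of its reads could be placed on them or left out, depending on how the authors treated reads with several matches.

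Of 4 measured genes, 2 reached 1 RPKM. The creatine transporter gene Slc6a8 was at 38.0 and 41.5 RPKM in the libraries labelled Mll1-/- with and without TNF, against 22.0 and 21.8 RPKM in wild type (log2 0.77 and 0.91). Gamt, whose enzyme makes creatine, was lower by the size rule without TNF, at 3.11 RPKM against 10.5 RPKM (log2 -1.60), and had log2 -0.64 with TNF. The muscle creatine kinase gene Ckm had 0 reads in both libraries labelled Mll1-/- and at most 0.0255 RPKM in wild type.

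**Figure D2:**
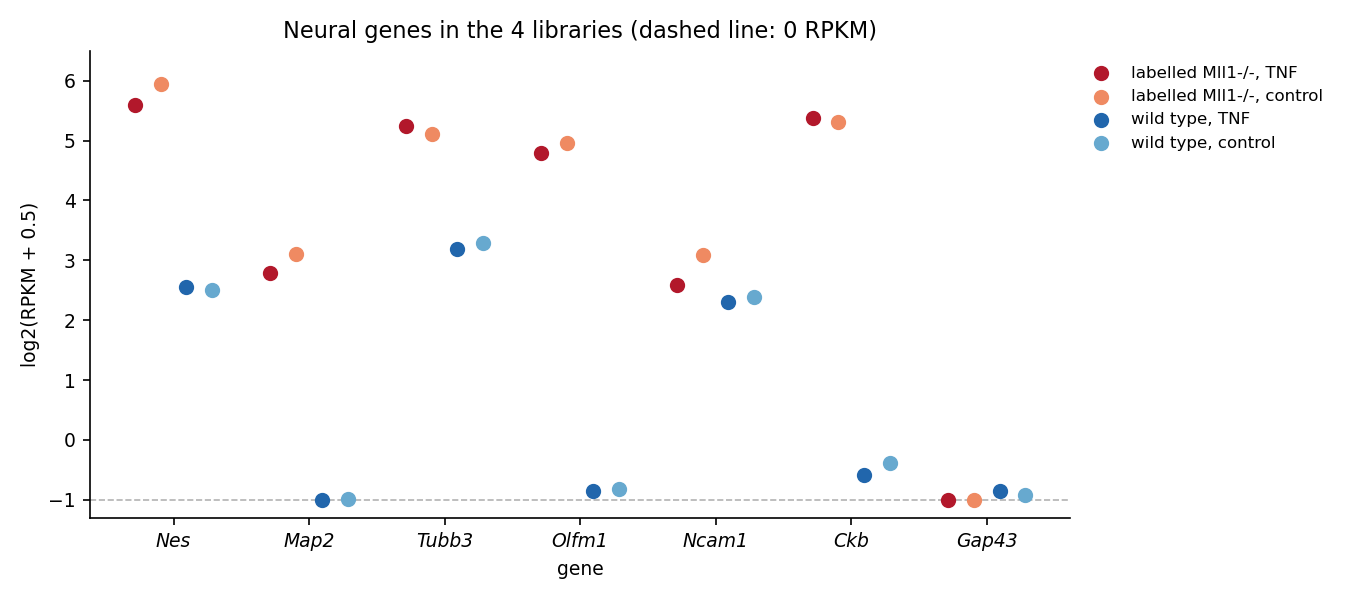
Level of each of the 7 genes as log2(RPKM + 0.5) (vertical axis) in the 4 libraries, 1 point per library, with a dashed line at 0 RPKM. Nes, Map2, Tubb3, Olfm1 and Ckb lie higher in both libraries labelled Mll1-/- (red and orange) than in both wild-type libraries (blue), Ncam1 less so, and Gap43 is at or near 0 in all 4.

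**Figure D3:**
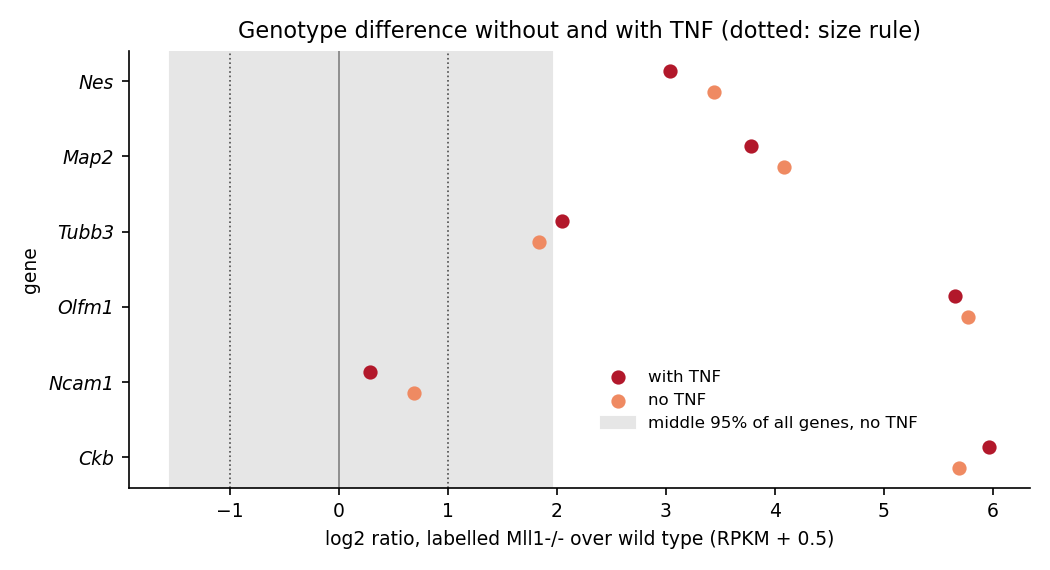
Log2 ratio of the libraries labelled Mll1-/- over wild type for 6 of the genes, with TNF (red) and without (orange), with the middle 95% of all 14386 genes without TNF shaded and the size rule dotted. Olfm1 and Ckb lie above 5.6 in both comparisons, and Ncam1 lies within the size rule. Gap43 is left out, since its reads are at or under the floor in all 4 libraries.

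Among the genes themselves, 2 patterns of baseline could be told apart. In wild type, Tubb3 (8.64 and 9.23 RPKM with and without TNF), Nes and Ncam1 were measurable, while Ckb, Olfm1, Map2 and Gap43 were at or under 0.268 RPKM. In the libraries labelled Mll1-/- the order was Nes, Ckb, Tubb3, Olfm1, Map2, Ncam1 and Gap43, both with and without TNF. With TNF, Map2 (6.39 RPKM) and Ncam1 (5.54 RPKM) were close, and without TNF closer still (8.12 and 7.96 RPKM). The median of the 11115 named genes compared was between 10.8 and 11.0 RPKM in each library, so Nes, Ckb, Tubb3 and Olfm1 stood above the median gene in the libraries labelled Mll1-/- and all 7 stood below it in wild type.

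By the distance between patterns over the 4 libraries (log2 values, each gene centred on its own mean), Olfm1 and Ckb were the closest pair of the 6 genes compared, at 0.23, followed by Nes and Map2 at 0.70. Ckb and Ncam1 were the farthest apart, at 5.35. Among 9206 protein-coding genes, predicted ones left out, with at least 3 RPKM in 1 library, the nearest was Dock8 for Nes, Emp2 for Map2, F11r for Olfm1, Ramp3 for Ckb, Ptprn for Tubb3 and Ddx6 for Ncam1. The distances of the nearest were between 0.046 (Ddx6) and 0.204 (Ramp3). Ramp3, for instance, had 34.4 and 30.6 RPKM in the libraries labelled Mll1-/- with and without TNF, against 0.0293 and 0.0295 RPKM in wild type. With 4 libraries such likeness mainly restates the genotype ratio.

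The response to TNF was not used in choosing the genes. TNF moved none of the 6 genes compared past the size rule in the cells labelled Mll1-/-, where 0.848% of all genes passed it in either direction, nor in wild type, where 0.577% did. With shares so low, this count is no result about these genes. In wild type, Map2, Olfm1 and Ckb were at or under 0.268 RPKM without TNF, so on RPKM + 0.5 they could not fall past the rule. In the cells labelled Mll1-/-, Ncam1 had the lowest ratio, with 5.54 RPKM with TNF against 7.96 RPKM without, a ratio of 0.696 (counting interval 0.629 to 0.768, log2 -0.49). Nes had a ratio of 0.782 (0.755 to 0.809, log2 -0.35), Map2 0.787 (0.711 to 0.870, log2 -0.32) and Olfm1 0.898 (0.835 to 0.964, log2 -0.15). Tubb3 had 1.09 (1.01 to 1.18, log2 0.13) and Ckb 1.05 (0.971 to 1.14, log2 0.07). Ncam1, Nes, Map2 and Olfm1 were thus below 1 and outside counting error.

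Those ratios moved along with transcript length. In the cells labelled Mll1-/-, the median log2 TNF ratio of all genes was 0.31 in the decile of shortest transcripts and -0.20 in the decile of longest ones, while in wild type it stayed between -0.05 and 0.03. The entries of Ncam1 (6192 bases), Nes (6143) and Map2 (5535) are long, Olfm1 (2686) is intermediate, and Tubb3 (1758) and Ckb (1478) are short. With the length trend removed the log2 TNF ratios in the cells labelled Mll1-/- were -0.32 for Ncam1, -0.19 for Nes, -0.18 for Map2, -0.15 for Olfm1, -0.06 for Ckb and 0.03 for Tubb3. Ckb changed sign by this, and when scaling ignored the 20 most abundant genes both Ckb (-0.09) and Tubb3 (-0.03) did, so neither has a stable direction. The part of transcript length in these TNF ratios was not tested beyond that correction. The genotype ratios without TNF moved with length too. Their median log2 over all genes was -0.53 in the decile of shortest transcripts and 0.25 in the decile of longest ones. With TNF these medians were -0.17 and 0.0079. With the length trend removed, 5 of the 6 neural genes compared were still higher by the size rule in both genotype comparisons.

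In wild-type cells only Nes, Tubb3 and Ncam1 had reads enough for a close estimate of the TNF ratio. Nes had 5.38 RPKM with TNF and 5.18 RPKM without (ratio 1.04, counting interval 0.946 to 1.14), Tubb3 8.64 and 9.23 RPKM (0.936, 0.818 to 1.07), and Ncam1 4.46 and 4.74 RPKM (0.940, 0.851 to 1.04). All 3 intervals include 1. For Ckb (7 reads with TNF and 11 without) and Olfm1 (4 and 5 reads) the intervals of 0.207 to 1.78 and 0.157 to 3.68 are wide, and for Map2 (0 reads and 1 read) no ratio is given. At this depth no TNF difference was detectable for these genes in wild type.

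**Figure D4:**
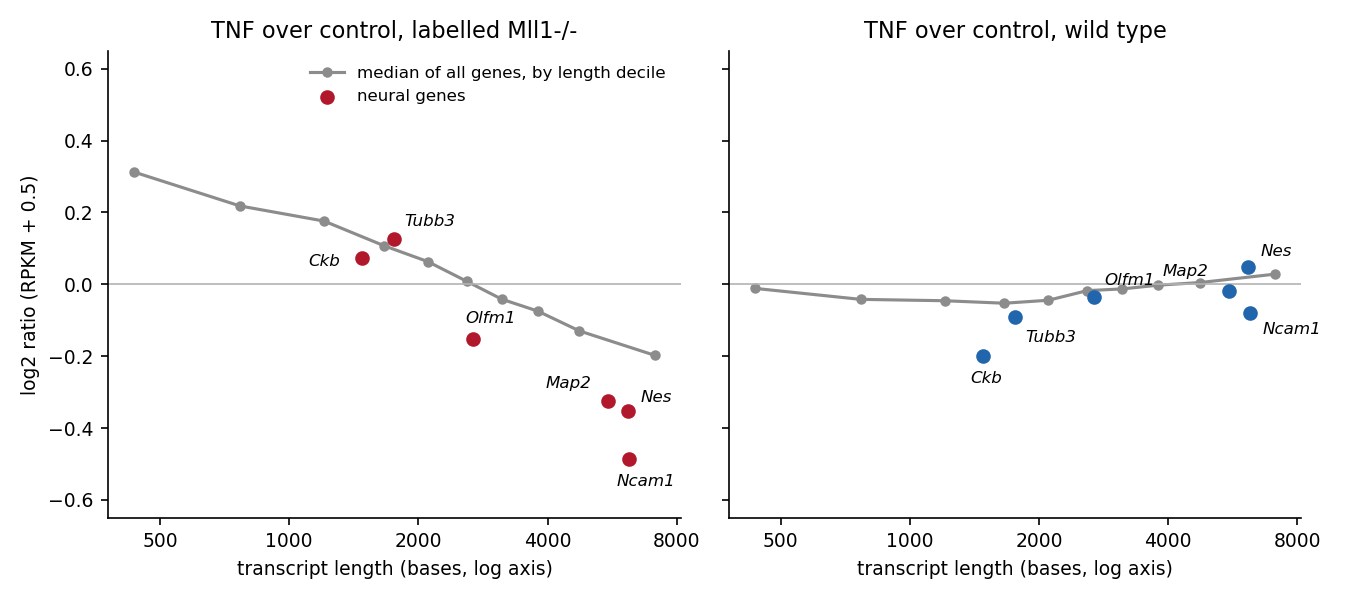
Log2 ratio of TNF over control (vertical axis) against transcript length in bases (horizontal log axis) for the cells labelled Mll1-/- (left) and wild type (right), with the medians of all genes by length decile as a grey line and 6 neural genes as points. On the left the line falls with length and the genes lie between 0.13 for Tubb3 and -0.49 for Ncam1, and on the right they lie between -0.20 for Ckb and 0.05 for Nes.

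On RPKM + 0.5, the TNF response differed between the genotypes by less than the size rule for all 6 genes, where 1.18% of all genes passed it in either direction. For Map2, Olfm1 and Ckb, near 0 in wild type, that scale draws the wild-type ratio towards 0. Counting intervals of the difference, taken from reads as log2 response in the cells labelled Mll1-/- minus that in wild type, lay below 0 for Nes (-0.41, interval -0.55 to -0.27) and Ncam1 (-0.43, -0.64 to -0.23). For Tubb3 the difference was 0.22 with an interval of 0.0019 to 0.45. Removal of the length trend brought the differences on the pseudocount scale to -0.22 for Nes, -0.22 for Ncam1 and 0.08 for Tubb3. For Olfm1 (-1.72 to 2.08) and Ckb (-0.63 to 2.11) the intervals were wide on either side of 0. For Map2, under the read floor in wild type, none could be taken. Whether the responses of Map2, Olfm1 and Ckb differed past the size rule thus cannot be told. With 1 library a group, no test of the difference between replicates exists.

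Of 14 listed genes that define neurones, 11 were measured and 2 reached 1 RPKM: Syn1, a synaptic vesicle protein gene, at 2.61 and 2.96 RPKM in the libraries labelled Mll1-/- with and without TNF, against 0.412 and 0.348 RPKM in wild type, and Slc17a6, a vesicular glutamate transporter gene, at 1.15 and 0.907 RPKM against 0.00824 and 0.0333 RPKM. Both reached 1 RPKM only in libraries labelled Mll1-/-, so they had to differ. The list summed to 4.38 and 4.52 RPKM in the libraries labelled Mll1-/- with and without TNF, against 0.733 and 0.879 RPKM in wild type. Syn1 and Slc17a6 made up most of the sums in the libraries labelled Mll1-/-, so the sums mainly restate those 2 genes. The neuronal nuclear gene Rbfox3 was at 0 in 3 of the 4 libraries, and the synaptic gene Snap25 did not pass 0.0243 RPKM in any.

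In 4 further lists no gene reached 1 RPKM in any library. The 5 measured neural progenitor genes summed to 0.136 and 0.188 RPKM in the libraries labelled Mll1-/- with and without TNF, against 0.145 and 0.0876 RPKM in wild type, beside the 47.96 and 61.4 RPKM of Nes. The 9 neuronal transcription factor genes summed to 0.363 and 0.272 RPKM against 0.0769 and 0.102 RPKM. The 6 astrocyte genes summed to 0.548 and 0.354 RPKM against 0.708 and 0.635 RPKM, and the 6 oligodendrocyte genes to 0.715 and 0.510 RPKM against 0.511 and 0.424 RPKM. Listed genes without a matched entry, among them Sox2 and Syt1, were not analysed here.

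Of 9 neural crest and Schwann cell genes, 3 reached 1 RPKM, of which 1 did so only in the libraries labelled Mll1-/- and 1 only in wild type, so these had to differ. Tfap2a, a neural crest transcription factor gene, was at 1.27 and 1.22 RPKM in the libraries labelled Mll1-/- with and without TNF, against 0.0125 and 0.0126 RPKM in wild type. Pax3, a transcription factor gene of neural crest and muscle precursors, was listed at 0 in both libraries labelled Mll1-/-, against 1.16 and 1.01 RPKM in wild type. Pmp22 was at 39.7 and 41.0 RPKM against 48.6 and 50.8 RPKM. The crest gene Sox10 had at most 0.0659 RPKM.

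Muscle precursors also make nestin and NCAM. Of 7 measured muscle lineage genes, 4 reached 1 RPKM. Without TNF, Des was higher and the acetylcholine receptor gene Chrna1 (0.883 against 2.72 RPKM, log2 -1.22) lower by the size rule, and with TNF only Des passed it among the 4. Among all genes compared, 7.11% were higher and 7.99% lower without TNF, and 6.71% and 4.5% with TNF. Acta1, the skeletal actin gene, was at 208 and 203 RPKM in the libraries labelled Mll1-/- with and without TNF, against 142 and 175 RPKM in wild type, and its count is uncertain because other actin genes are near-identical. Their part in the levels of Nes and Ncam1 was not tested. The myogenic factor gene Myf6 did not pass 0.0415 RPKM.

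REST is the repressor that keeps neuronal genes silent in non-neuronal cells. RNA of its gene and of its partners' genes was present in all 4 libraries, and protein was not measured. Rest was at 4.41 and 5.10 RPKM in the libraries labelled Mll1-/- with and without TNF, against 5.002 and 4.40 RPKM in wild type (log2 -0.17 and 0.19). Of its 8 complex genes 1 was higher and 0 lower by the size rule in both comparisons, the corepressor gene Rcor2, at 15.8 and 17.3 RPKM against 6.46 and 6.04 RPKM. Over all genes compared, 6.71% were higher with TNF and 7.11% without, so 1 of 8 is no result about the complex. Rcor1, another corepressor gene, had log2 ratios of 0.20 with TNF and 0.53 without, Hdac1 had -0.17 and -0.34, and Kdm1a had -0.14 and -0.05.

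**Figure D5:**
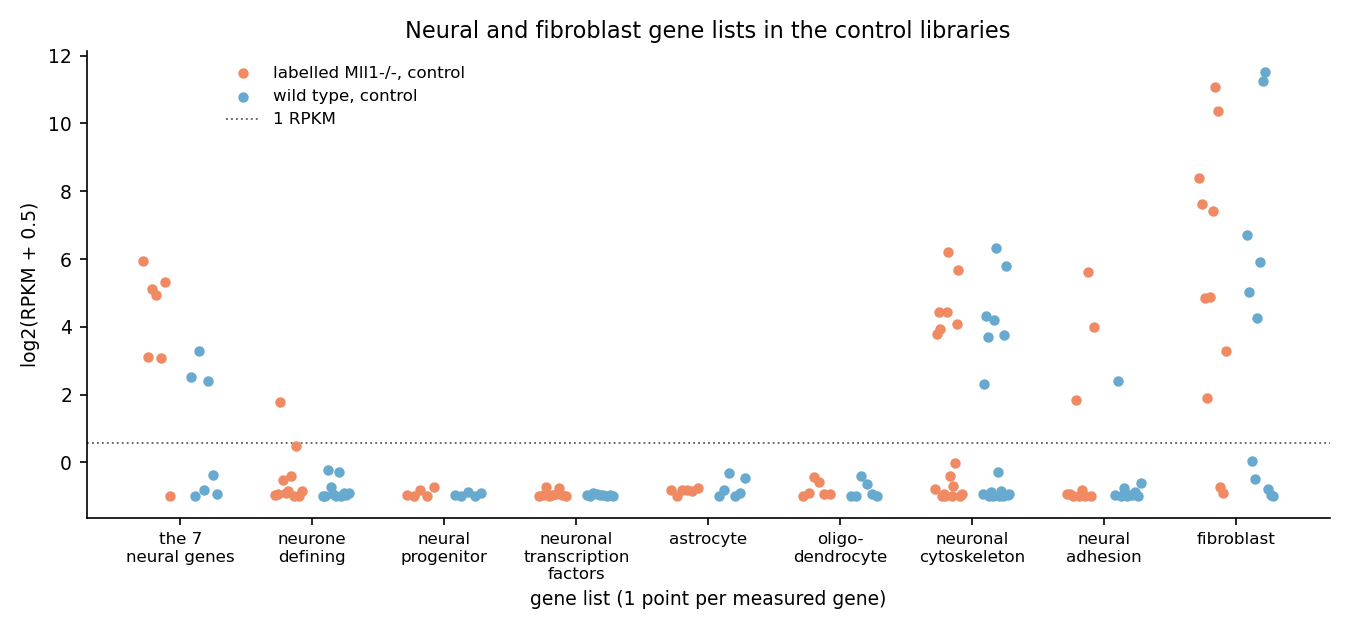
Level of each measured gene as log2(RPKM + 0.5) (vertical axis) in the control library labelled Mll1-/- (orange) and the wild-type control library (blue) for the 7 neural genes and for 8 gene lists, with 1 RPKM dotted. Points of the neural progenitor, transcription factor, astrocyte and oligodendrocyte lists all lie under 1 RPKM, and fibroblast genes reach 2934 RPKM.

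Of 9 fibroblast genes with 1 RPKM, 3 (Col3a1, Dcn and Pdgfra) reached it only in the libraries labelled Mll1-/- and had to differ. Of the other 6, 3 were higher and 1 lower by the size rule without TNF, where 7.11% of all genes were higher and 7.99% lower, and 3 were higher and 0 lower with TNF, where 6.71% and 4.5% were. Col3a1 was at 23.5 and 28.1 RPKM in the libraries labelled Mll1-/- with and without TNF, against 0.296 and 0.531 RPKM in wild type. S100a4 was lower by the size rule without TNF (1332 against 2934 RPKM, log2 -1.14) and at 2385 against 2692 RPKM with TNF. Its transcript is short (513 bases), and with the length trend removed its log2 ratio without TNF was -0.66, within the size rule. Higher levels of Nes, Map2, Tubb3, Olfm1 and Ckb thus stood in the same libraries as higher levels of collagen genes, and any link between them was not tested.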

How the data were processed

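Per the file headers and values, the authors deposited RPKM for 27344 transcript entries in each of 4 libraries; depth was not given as counts. Per the submitters' processing notes, TopHat and DESeq were used, without version or role. The sources used here do not state build, annotation, read length, strand or counter (not given), and no filter or pooling beyond the mixing of 3 treatments is stated.

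RPKM values are whole reads scaled by length and total, so library totals, lengths and reads were recovered, with all 4 libraries whole within 0.0001 reads for 27341 entries (99.99%). Reads were multiplied in 1227 entries to match a GENCODE M21 length and are elsewhere a lower bound. Of 20658 entries compared with a GENCODE length, 79.0% had a length within 10% of it. Entries were named by RefSeq accession, 20845 through the RefSeq gene table (GRCm38.p6) and 106 through GENCODE, with 6393 unnamed. Ratios were of RPKM + 0.5 and the length trend was a lowess fit (span 0.3). Promoters were found for 5 of the 7 genes. Python 3.11.15, pandas 2.3.3, scipy 1.17.1, statsmodels 0.14.6 and matplotlib 3.10.9 were used. Only the recovery of totals and lengths and the size rule were tested on simulated data. The genes, lists and rules were chosen with earlier results of these data known: named genes are the 7, up to 4 per list (the 2 highest and 2 lowest genotype ratios without TNF), neurone genes with 1 RPKM, Rest, Kmt2a and the 2 nearest patterns, of which the nearest is given for each gene and 1 other is not reported here. Mapt, Dcx, Crmp1, Gfap, Nefm, Rbfox3, Snap25, Myf6, Sox10, St8sia4, Ckm, Basp1, Tubb5, Pdgfra and Col1a1 were named after their values were seen. The 9 alternatives were other pseudocounts (0.1 and 1), no filter or a filter of 3 RPKM, 3 scalings, removal of the length trend and the mean over entries.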

Additional observations from a re-analysis of the deposited data

Results flagged for a closer look

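As scaled by the authors, the TNF ratios of Nes, Ckb and Tubb3 had opposite signs in the genotypes. For Ckb and Tubb3 this did not hold under every alternative. The log2 TNF ratio was -0.35 in the cells labelled Mll1-/- and 0.05 in wild type for Nes, a difference of -0.40. It was 0.07 and -0.20 for Ckb, a difference of 0.27, and 0.13 and -0.09 for Tubb3, a difference of 0.22. With 1 library a group these differences were not tested. The counting intervals of the wild-type ratios all include 1. With the 20 most abundant genes left out, the ratios in the cells labelled Mll1-/- and in wild type were both negative for Ckb (-0.09 and -0.18) and for Tubb3 (-0.03 and -0.07), and with the length trend removed both were negative for Ckb (-0.06 and -0.15). Nes had opposite signs in each of these (-0.52 and 0.07, then -0.19 and 0.03). Under median-ratio scaling Ckb (0.05 and -0.19) and Tubb3 (0.10 and -0.09) kept opposite signs. Tubb3 also kept them under upper-quartile scaling (0.05 and -0.08) and with the length trend removed (0.03 and -0.04). Under upper-quartile scaling Ckb was negative in both (-0.0051 and -0.19).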

How the results depend on the processing

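Under each of the 9 alternatives, 5 of the compared genes were past the size rule in both genotype comparisons and 0 in either TNF comparison or in the difference of responses. The listed genes past the size rule between the control libraries numbered 23 of 56. Under the alternatives they numbered between 18 (filter of 3 RPKM, which tests 50 genes in place of 56) and 25 (20 most abundant genes left out). Over all genes compared, 7.11% were higher and 7.99% lower. Some listed genes, such as Cadm1, L1cam, Syn1 and Dcn, reached 1 RPKM in 1 genotype only and had to differ. The lists were also chosen with earlier results known, so this number is no result. Of 270 values of single genes under the alternatives, 243 moved by no more than their counting interval or had none, and 27 moved by more. The filter settings cannot move the value of a single gene. Nor can the mean over entries for a gene with 1 entry (Nes, Ckb and Tubb3), so part of the 243 was fixed in advance. The values of genes near 0 in wild type depended most on the pseudocount, with log2 ratios without TNF between 3.18 and 6.27 for Map2 and between 4.88 and 7.51 for Olfm1. Leaving the 20 most abundant genes out shifted the median of all genes by 0.28 without TNF, 0.10 with TNF and -0.15 for TNF in the cells labelled Mll1-/-, whose counts past the rule were then 1524 higher and 623 lower, against 1023 and 1150, for the genotypes without TNF. With the length trend removed they were 1186 and 701. For TNF in the cells labelled Mll1-/- the counts were 99 higher and 23 lower, against 61 and 57 with the length trend removed and 158 and 65 with a pseudocount of 0.1, which gave 126 and 30 against 75 and 8 in wild type. For the difference of responses they were 109 and 61, against 197 and 113 with that pseudocount, 36 and 150 with the length trend removed and 62 and 103 with the most abundant genes left out. No paired analysis was possible because each group is 1 library, and depth limits any statement on Map2, Olfm1, Ckb and Gap43 in wild type.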
